A study of Mus musculus with 8 samples.

Results

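Genes of lysosomal enzymes and cathepsins were followed in RNA of mouse uterine epithelium, in mice that lacked the TGF-beta signal transducers SMAD2 and SMAD3 in the uterus and in control mice. The set is a fixed list of 38 gene symbols, taken by name, out of 24346 gene symbols in the deposited tables. All 38 were present, and all 38 were high enough to be tested. It holds 12 cathepsins with legumain, 12 other hydrolases of proteins and sugars, 7 proteins that handle lipids, 5 proteins of the lysosomal membrane and the transcription factor Tfeb.

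The conditional knockout group (cKO, 5 libraries) carried 2 floxed alleles of Smad2 and of Smad3 together with a Cre recombinase knocked into the progesterone receptor locus (Smad2flox/flox;Smad3flox/flox;Pgr-cre). The control group (3 libraries) is labelled only as control, and its floxed and Cre alleles are not given there. Every line was kept on a mixed C57BL/6/129S6/SvEv background. Pgr-cre acts wherever the progesterone receptor is expressed, which per the labels also includes the ovary, oviduct, mammary gland and pituitary, so the deletion is not limited to the epithelium. No age or cycle stage is stated in the sources used here. Whether the libraries are from different mice is not stated either, and the p-values therefore describe the spread among these 8 libraries, some of which may be technical.

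Lysosomes are acid compartments in which proteins, sugars and lipids are taken apart. A proton pump, the vacuolar ATPase, keeps them acid, and most of their enzymes are carried there from the Golgi by receptors for mannose 6-phosphate. Cathepsins are their main proteases: B, C, F, H, K, L, O, S and Z are cysteine proteases, D and E aspartic proteases and A a serine carboxypeptidase. They are made as inactive precursors, can also be secreted, and are held in check by cystatins and stefins. Cathepsins B and L are known from the mouse uterus around implantation. TFEB, a transcription factor that enters the nucleus when lysosomes are under load, is known from human cells to bind short palindromic elements near the start of many lysosomal genes, whose core is the E-box CACGTG.

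Promoter sequences are shown first, because many lysosomal genes are known by this element, and the called genes can be read against it. RefSeq sequence of 300 bases on GRCm38.p6, from 250 before to 50 after a gene's start, was matched by symbol for 32 of the 38 genes; Ctsb, Ctse, Ctsh, Asah1, Galns and Npc1 were not matched. The letters CACGTG stood in the promoters of 11 of the 32 genes (34.4%), against 8.09% of 27025 genes in the same table. They were extended to TCACGTGA in 4 of the 32 (12.5%; Ctsa, Ctsd, Gla and Mcoln1), against 1.12% of all genes, and to GTCACGTGAC in 0 of the 32, against 0.37%. In Ctsa the core stood at -12 and 6 from an alternative start inside the gene, and the window at its upstream start held none. Each of these words reads the same on both strands, and each longer word contains the shorter. The windows below run 5′ to 3′ on the gene's strand and end at or before the start site, with the core or its extension by 1 base on each side in capitals. They show Mcoln1 and Gla, which hold the extended word, Lamp1, which holds the core 4 times between -61 and -15 from the start, and Lgmn, the only called gene with a match, at -49 from an alternative start inside the gene.
Mcoln1, chr8:3500428-3500499, plus strand: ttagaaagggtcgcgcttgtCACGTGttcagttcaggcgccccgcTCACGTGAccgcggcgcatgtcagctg
Gla, chrX:134601174-134601252, minus strand: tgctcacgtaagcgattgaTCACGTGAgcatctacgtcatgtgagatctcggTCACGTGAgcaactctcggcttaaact
Lamp1, chr8:13159080-13159160, plus strand: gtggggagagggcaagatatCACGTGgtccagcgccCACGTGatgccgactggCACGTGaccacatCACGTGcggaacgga
Lgmn, chr12:102439116-102439161, minus strand: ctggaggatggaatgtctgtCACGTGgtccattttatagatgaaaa

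The next windows are the 100 bases before the start of the most strongly raised genes, Ctsz and Ctsc, and of the lowered gene Lipa, in which the core was not found anywhere in the 300 bases.
Ctsz, chr2:174439040-174439139, minus strand: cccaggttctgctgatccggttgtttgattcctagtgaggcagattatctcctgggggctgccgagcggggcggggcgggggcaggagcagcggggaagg
Ctsc, chr7:88277985-88278084, plus strand: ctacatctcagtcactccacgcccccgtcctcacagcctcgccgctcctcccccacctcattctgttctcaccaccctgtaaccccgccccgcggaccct
Lipa, chr19:34527475-34527574, minus strand: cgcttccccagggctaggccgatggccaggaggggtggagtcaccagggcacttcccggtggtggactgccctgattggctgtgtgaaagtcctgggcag

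Among genes called higher in cKO epithelium, 1 of 6 with a promoter sequence held CACGTG (Lgmn). Among those called lower it was 0 of 3, and among those not called 10 of 23 (Ctsa, Ctsd, Ctsf, Ctsl, Gaa, Gla, Glb1, Lamp1, Mcoln1 and Naglu). These are descriptions of the letters in the windows, and no test was made of them.

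The targeted genes were read first. Smad2 had 3.79, 3.03, 4.02, 3.63 and 3.41 scaled FPKM in cKO 1 to 5, against 5.69, 6.35 and 6.18 in controls 1 to 3. All cKO libraries lay below all controls, with a log2 fold change of -0.63 ± 0.10 (SE) and an adjusted p of 0.00551 (limma, Benjamini-Hochberg over 11315 genes). Smad3 had 20.7 to 42.6 scaled FPKM in cKO, against 25.6 to 31.5 in controls, a log2 fold change of 0.08 ± 0.22 that was not called (adjusted p = 0.837, limma). The deletion removes some exons, so values over the whole gene check the labels only in part. FPKM here are fragments per kilobase of transcript, relative to all mapped fragments of the library, and brought to 1 scale across libraries, so that levels of different genes are per length.

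The label of the tissue was checked against its markers. Epithelial markers (8 of 8 tested) summed to 3425 to 5928 scaled FPKM in cKO and 4385 to 4756 in controls. Stromal fibroblast markers (6 of 10 tested) summed to 131 to 278 in cKO and 204 to 370 in controls. Smooth muscle markers (6 of 8 tested) summed to 15.3 to 104.5 in cKO and 56.2 to 325 in controls, with a control median of 92.9. All 6 tested genes of each list had a negative log2 fold change, with list medians of -0.71 and -1.05. No gene of either list was called. Macrophage markers (5 of 11 tested, none called) summed to 17.2 to 53.7 in cKO and 20.3 to 32.9 in controls, with Cd163 at or near 0 in all 8 libraries. Neutrophil markers (7 of 9 tested) summed to 309 to 1992 in cKO and 213 to 413 in controls. All 7 tested had a positive log2 fold change, with a median of 1.34. Of these, 2 were called higher (28.6%, against 14.3% of all genes tested), Retnlg (adjusted p = 0.0392, limma) and Il1r2 (0.0432). Each was called without 2 of the 8 libraries only, with adjusted p of up to 0.143 and 0.182 without control 2. S100a8 (2.38 ± 0.70, adjusted p = 0.0545, limma) and S100a9 (1.83 ± 0.54, 0.0540) were not called. Without 1 library their adjusted p ran from 0.00437 to 0.191 and from 0.00146 to 0.176. Dendritic cell and lymphocyte markers summed to at most 3.08 in every library and none was tested. Foxa2, the transcription factor that marks uterine glands, had 4.59 to 6.26 scaled FPKM in cKO and 0.442 to 0.966 in controls (log2 fold change 1.81 ± 0.15, adjusted p = 0.000307, limma). No other gland marker was high enough to be tested. Cxcl15 had at most 0.0364 in cKO and 0.131 in controls, Prss29 at most 0.0585, and Prss28 and Ttr were at 0 in all 8 libraries. Luminal markers (3 tested, 0 called) summed to 149 to 603 in cKO and 118 to 342 in controls. Most of each sum was Calb1, at 115 to 581 in cKO and 87.7 to 308 in controls (log2 fold change 0.85 ± 0.56). The log2 fold changes of Wnt7a (-0.51 ± 0.21) and Lpar3 (-0.15 ± 0.11) were negative. In such bulk samples more cells of a type and more RNA per cell cannot be told apart.

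The comparison asks which lysosomal genes differ in uterine epithelium once Smad2 and Smad3 are deleted. The lysosomal genes did not move together. Of the 38, 7 rose in cKO epithelium (Ctsz, Ctsc, Ctsb, Neu1, Cd63, Manba and Lgmn) and 4 fell (Ctse, Lipa, Ctso and Galc), at an adjusted p below 0.05 in limma. The 11 called are 28.9% of the set, where 14.3% of all genes tested were called, 7.27% higher and 6.98% lower. The other 27 were not called, and 24 of these had a log2 fold change of less than 0.4 in size.

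Of the 38 log2 fold changes, 18 were positive and 20 negative, with a median of -0.04, against -0.01 over all genes tested. In 12 of the 38 (31.6%; 7 higher, 5 lower in cKO) the 5 cKO and 3 control libraries did not overlap, against 24.6% of all genes tested. These 12 are Ctsz, Ctsc, Neu1, Manba, Lgmn, Ctsd and Ppt1 on the higher side and Ctse, Lipa, Ctso, Galc and Hexa on the lower. A total of 17 of the 38 had an unadjusted p below 0.05 (limma), as did 3560 of the 11315 genes tested. The counts rest in part on single libraries: without control 2 they were 3 higher and 0 lower, without control 3 they were 3 higher and 2 lower, and without cKO 5 they were 4 higher and 4 lower. All genes called fell too, from 823 higher and 790 lower to 238 and 186 without control 2. They were 242 and 176 without control 3, and 617 and 617 without cKO 5. By their titles, cKO 1 and cKO 2 carry numbers from a separate run of numbering that holds no controls and may mark a batch. With this title series as a term 5 lysosomal genes were higher and 3 lower, with Ctsb, Cd63, Manba and Ctso lost and Asah1 gained. All genes called were then 802 higher and 648 lower. Without both cKO 1 and cKO 2, 6 lysosomal genes were higher and 3 lower, with Ctsb, Cd63 and Ctso lost and Asah1 gained. All genes called were 734 higher and 588 lower there. On TPM, which moved the median log2 fold change of all genes to -0.20, 7 lysosomal genes were higher and 7 lower. Of all genes called, 51.0% were higher on the main scale and 23.5% on TPM.

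**Figure D1:**
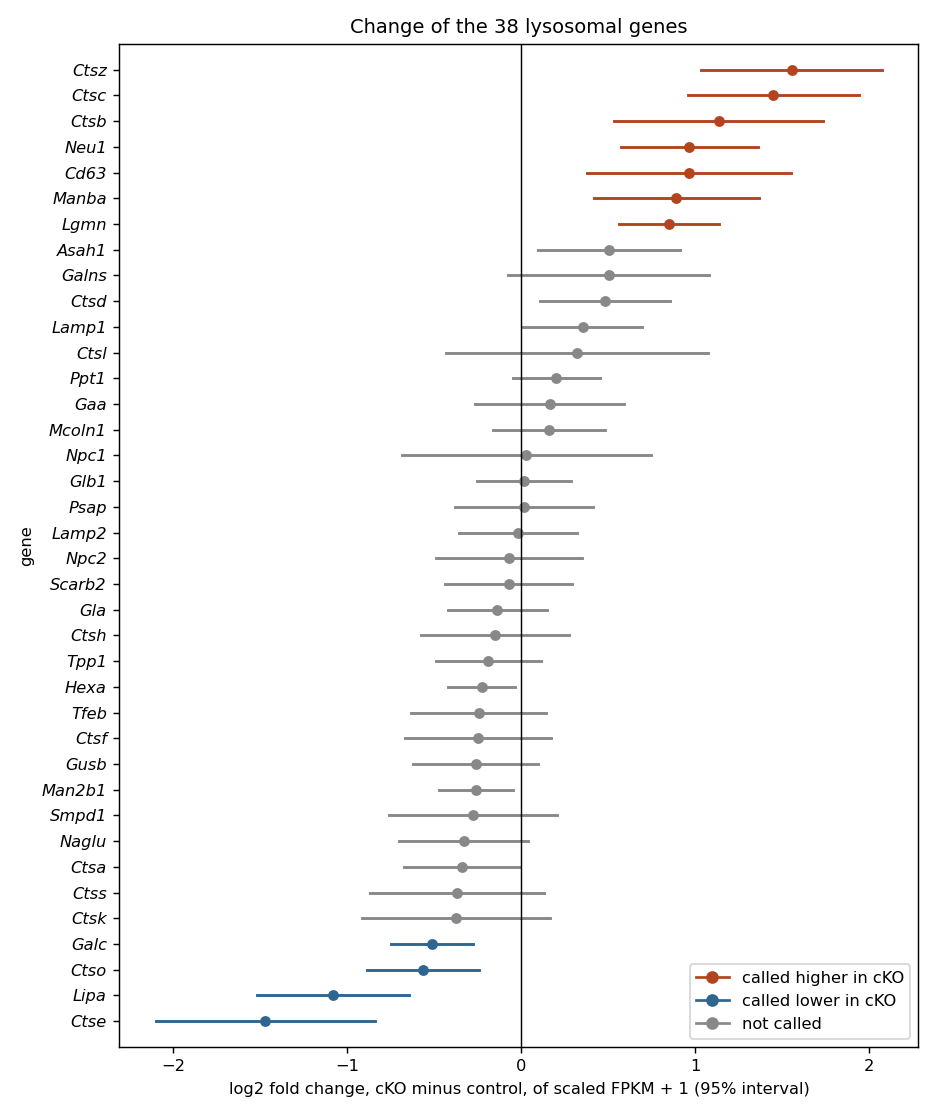
Log2 fold change (x axis, cKO minus control, of scaled FPKM + 1) of each of the 38 lysosomal genes (y axis, ordered by size), as points with the 95% interval of the limma fit. The 7 genes called higher run from 0.85 (Lgmn) to 1.55 (Ctsz), the 4 called lower from -0.51 (Galc) to -1.47 (Ctse), and the 27 in grey were not called.

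Among the cathepsins and legumain, 4 of 13 rose and 2 fell in cKO epithelium (46.2% called, against 14.3% of all genes tested). The risers were 3 cysteine proteases that trim proteins from their ends, Ctsz, Ctsc and Ctsb, and the asparaginyl protease legumain, which cuts cathepsin precursors to their mature form. Those that fell were the aspartic protease Ctse and the cysteine protease Ctso. The most abundant of the family, Ctsl, was not called.

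Cathepsin Z (Ctsz, mm10 chromosome 2, 174427494 to 174438992, minus strand) is a carboxypeptidase that removes residues from the C-terminal end. It had 234, 240.4, 170.5, 154 and 304 scaled FPKM in cKO 1 to 5, against 85.0, 59.6 and 74.2 in controls 1 to 3. The lowest cKO library stood well above the highest control, and the ratio of the means was 3.02. The log2 fold change was 1.55 ± 0.23 (SE, adjusted p = 0.00433, limma), and it was called under all 23 alternatives, with adjusted p between 0.000697 and 0.032.

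Cathepsin C (Ctsc, chromosome 7, 88278093 to 88310875, plus strand) takes dipeptides off the N-terminal end and activates the serine proteases of immune cell granules. Its level was 132, 104.7, 80.4, 109 and 149 scaled FPKM in cKO 1 to 5, against 53.4, 36.8 and 34.0 in controls 1 to 3. The groups did not overlap. The means were 115 ± 26.4 in cKO (SD, n = 5) and 41.4 ± 10.5 in controls (SD, n = 3), with a log2 fold change of 1.45 ± 0.22 (adjusted p = 0.00453, limma) that was called under all 23 alternatives, with adjusted p between 0.000513 and 0.0339. Neutrophils are known to carry much cathepsin C. Their markers summed highest in cKO 3, where Ctsc had its lowest cKO value, and lowest in cKO 4, at 309 scaled FPKM and within the control range. Most of these sums was S100a8 and S100a9, at 67.9 and 207.5 in cKO 4. There S100a8, S100a9, Csf3r, Mmp8 and Ngp lay within the control range. Retnlg, Il1r2 and Cxcr2 were above all controls in cKO 4, at 2.39, 13.6 and 7.77. Il1r2, Csf3r and Cxcr2 were highest in cKO 2, and the others in cKO 3. In cKO 4, 6 of the 7 raised lysosomal genes were above all 3 controls, and Cd63 was not; Ctsz, Neu1 and Cd63 had their lowest cKO value there. The part of neutrophils in these differences was not tested.

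Cathepsin B (Ctsb, chromosome 14, 63122462 to 63145923, plus strand) acts both within and at the end of proteins. It had 789, 841, 452, 899 and 784 scaled FPKM in cKO 1 to 5, against 466, 283 and 279.7 in controls 1 to 3. Here 4 cKO libraries were far above the controls, while cKO 3 lay below control 1. The log2 fold change was 1.14 ± 0.27 (adjusted p = 0.0247, limma). The call was lost in 8 of 23 alternatives, among them without control 2 (adjusted p = 0.122), control 3 (0.116), cKO 1 (0.0507) or cKO 5 (0.0505), with the title series as a term (0.0627) and without both cKO 1 and cKO 2 (0.0908), while the adjusted p ranged from 0.00241 to 0.122 over all alternatives.

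Legumain (Lgmn, chromosome 12, 102394098 to 102439697, minus strand) had 48.0, 54.8, 54.7, 51.1 and 53.0 scaled FPKM in cKO 1 to 5, against 36.0, 25.5 and 25.3 in controls 1 to 3. The cKO values lay close together, at 52.3 ± 2.88 (SD, n = 5), and all were above the controls, at 28.9 ± 6.12 (SD, n = 3). This gave a log2 fold change of 0.85 ± 0.13 (adjusted p = 0.00451, limma). It was called under all 23 alternatives, with adjusted p between 0.000668 and 0.0345.

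Cathepsin E (Ctse, chromosome 1, 131638314 to 131675507, plus strand) is an aspartic protease found mostly in endosomes rather than lysosomes. It had 7.37, 11.5, 6.59, 12.4 and 8.87 scaled FPKM in cKO 1 to 5, against 39.1, 29.3 and 17.0 in controls 1 to 3. The groups did not overlap, but the controls themselves spread widely. Its log2 fold change of -1.47 ± 0.28 (adjusted p = 0.0117, limma) was the largest fall of the 38 genes. Without control 2 it was -1.41 with an adjusted p of 0.0653, and in the other 22 alternatives it was called, with adjusted p from 0.00597 upward.

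Cathepsin O (Ctso, chromosome 3, 81932616 to 81956725, plus strand), a little-studied cysteine protease, had 5.13, 4.55, 5.01, 6.35 and 6.82 scaled FPKM in cKO 1 to 5, against 7.27, 9.63 and 9.17 in controls 1 to 3. All cKO libraries were lower, cKO 5 only by a small step from control 1. Its log2 fold change was -0.56 ± 0.14 (adjusted p = 0.0325, limma). The call was lost in 8 of 23 alternatives, with the adjusted p at 0.153 without control 2, 0.135 without control 3, 0.0644 without cKO 1, 0.0541 without cKO 2, 0.0737 with the title series as a term and 0.098 without both cKO 1 and cKO 2, and a range of 0.00583 to 0.153 over all of them.

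**Figure D2:**
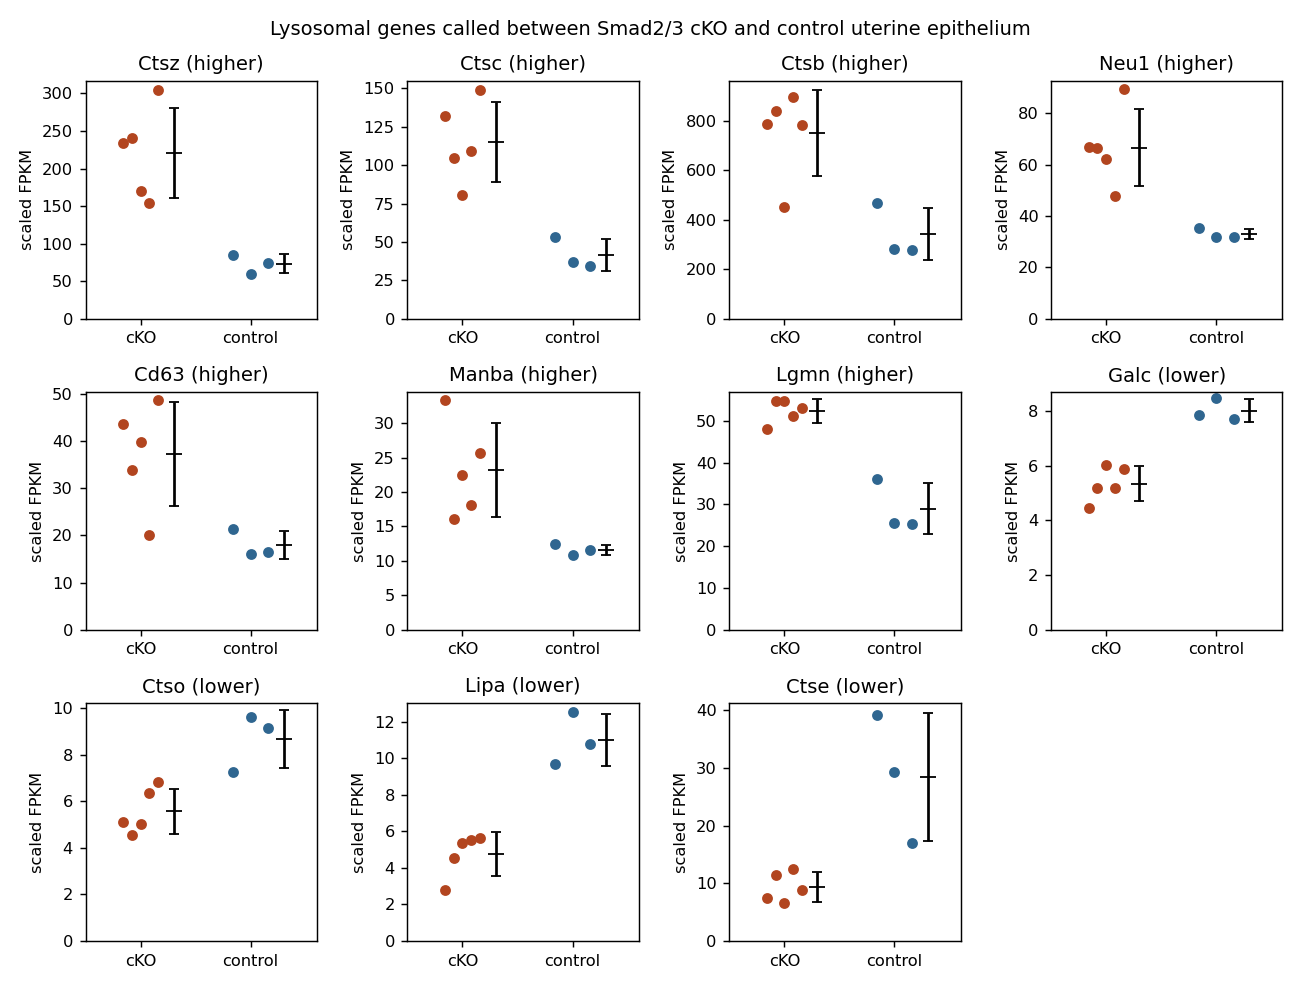
Scaled FPKM (y axis, from 0, 1 panel per gene) of the 11 called lysosomal genes in each cKO library (left) and control library (right), with bars for the mean ± SD (n = 5 cKO, n = 3 controls). Ctsb and Cd63 are the called genes whose groups overlap, each by 1 cKO library that lies below control 1.

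Cathepsin L (Ctsl), a strong cysteine endopeptidase, was the most abundant of the 38 genes. It had 2930.5, 1842, 3340.0, 1404 and 3665 scaled FPKM in cKO 1 to 5, against 1791, 1976 and 2194 in controls 1 to 3. The cKO libraries fell on both sides of the controls, with cKO 4 below and cKO 1, cKO 3 and cKO 5 above all of them. Ctsl thus had a log2 fold change of 0.32 ± 0.33 (95% interval -0.43 to 1.07, adjusted p = 0.533, limma).

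Cathepsin D (Ctsd), the main aspartic protease of lysosomes, had 784, 805, 954, 683 and 1041 scaled FPKM in cKO 1 to 5, against 633, 562 and 618 in controls 1 to 3. The groups did not overlap, yet the log2 fold change of 0.48 ± 0.17 was not called (adjusted p = 0.0872, limma). Cathepsin H (Ctsh), an aminopeptidase, had 225, 265, 265, 220.1 and 373 scaled FPKM in cKO, against 312.5, 250 and 324 in controls. These overlapped fully (log2 fold change -0.15 ± 0.19, adjusted p = 0.612, limma).

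The collagen-degrading cathepsin K (Ctsk) was the lowest of the set, with 0.542 to 1.32 scaled FPKM in cKO and 0.743 to 2.55 in controls. Its log2 fold change was -0.37 ± 0.24 (adjusted p = 0.313, limma). Cathepsin S (Ctss), which cuts the invariant chain in antigen-presenting cells, had 11.4 to 22.1 scaled FPKM in cKO and 19.1 to 27.8 in controls (-0.37 ± 0.22, not called). Cathepsin F (Ctsf) had 1.31 to 2.77 in cKO and 1.84 to 3.07 in controls (-0.25 ± 0.18, not called). Cathepsin A (Ctsa) had 54.0 to 86.0 in cKO and 81.8 to 90.1 in controls (-0.34 ± 0.15, not called, although it was called at -0.55 on TPM).

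The make-up of the cathepsin mRNA differed between the groups in some of these genes. Ctsz took 3.18% to 5.71% of the summed FPKM of the 12 cathepsins in cKO libraries and 1.797% to 2.43% in controls, without overlap. Ctsc took up to 3.07% in cKO and 0.926% to 1.52% in controls, where cKO 3 fell just below control 1. Ctse took 0.123% to 0.350% in cKO and 0.462% to 1.12% in controls, without overlap, and Ctsh took 4.33% to 6.30% in cKO and 7.53% to 8.92% in controls, again without overlap. Ctsa, Ctsf, Ctso and Ctss also took a smaller share in every cKO library than in any control. Ctsl and Ctsb varied most from library to library. Ctsl took 39.5% to 62.3% in cKO and 51.1% to 59.8% in controls, and Ctsb 8.43% to 25.3% in cKO and 7.62% to 13.3% in controls. In cKO 4, the library with the least Ctsl, Ctsb made up 25.3%, and in cKO 3, with the largest share of Ctsl, it made up 8.43%. Shares of 1 sum depend on each other, and no test was made of them.

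**Figure D3:**
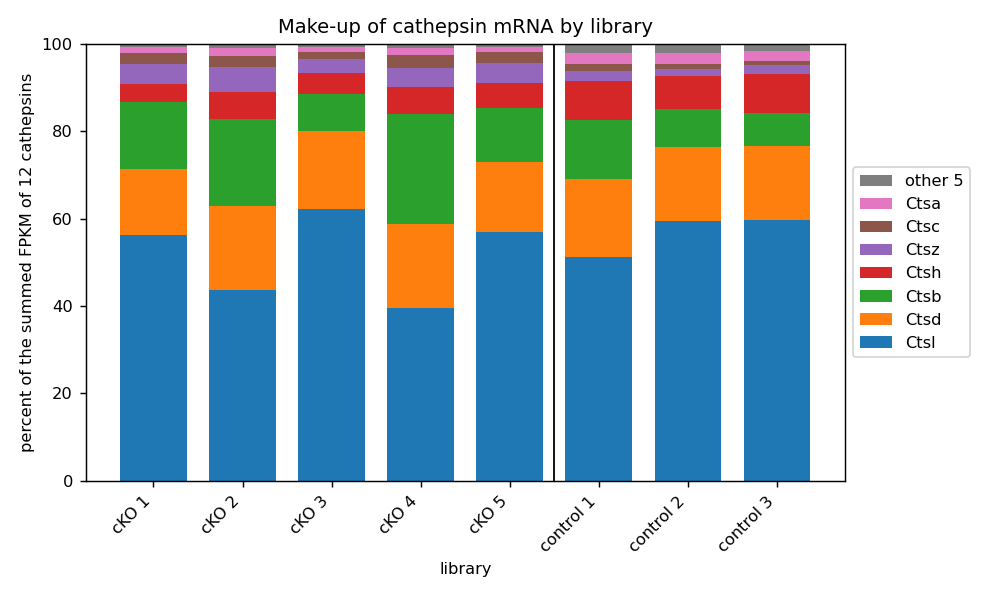
Percent of the summed FPKM of 12 cathepsins (y axis, 0 to 100) taken by each of the 7 most abundant and by the other 5 together, in the 5 cKO libraries (left) and 3 control libraries (right). Ctsl is the largest band in every library, at 39.5% to 62.3% in cKO and 51.1% to 59.8% in controls, and the band of Ctsz is wider in all cKO libraries.

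Of the 12 other hydrolases of proteins and sugars, 2 rose and 1 fell (25.0% called, against 14.3% of all genes tested). Sialidase 1 and beta-mannosidase, both of which trim sugar chains of glycoproteins, rose. Galactosylceramidase fell.

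Sialidase 1 (Neu1, chromosome 17, 34931253 to 34937297, plus strand) removes terminal sialic acids. It had 66.8, 66.5, 62.3, 47.9 and 89.6 scaled FPKM in cKO 1 to 5, against 35.2, 31.8 and 32.0 in controls 1 to 3. The controls were almost equal and all cKO libraries exceeded them, with a ratio of means of 2.02 and a log2 fold change of 0.97 ± 0.17 (adjusted p = 0.00956, limma). The adjusted p was 0.0564 without control 2 and 0.0549 without control 3, and between 0.00155 and 0.0564 over all 23 alternatives. Neu1 works in a complex with Ctsa, which protects it, and with beta-galactosidase (Glb1). Glb1 had 20.5 to 29.5 scaled FPKM in cKO and 24.3 to 24.8 in controls (log2 fold change 0.02 ± 0.12, not called), beside the values of Ctsa above.

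Beta-mannosidase (Manba, chromosome 3, 135485611 to 135571403, plus strand) had 33.4, 16.1, 22.4, 18.2 and 25.6 scaled FPKM in cKO 1 to 5, against 12.4, 10.9 and 11.5 in controls 1 to 3. The groups did not overlap, with cKO 1 highest. On the log2 scale the difference was 0.89 ± 0.21 (adjusted p = 0.0252, limma). It was lost in 5 of 23 alternatives, with the adjusted p at 0.0585 without control 1, 0.112 without control 2, 0.0968 without control 3, 0.052 without cKO 5 and 0.0594 with the title series as a term, in a range of 0.00364 to 0.112.

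Galactosylceramidase (Galc, chromosome 12, 98202300 to 98259459, minus strand) splits galactose from the lipids of myelin. It had 4.46, 5.17, 6.01, 5.19 and 5.89 scaled FPKM in cKO 1 to 5, against 7.84, 8.48 and 7.71 in controls 1 to 3. Both groups were tight and did not overlap. The log2 fold change was -0.51 ± 0.10 (adjusted p = 0.0155, limma), and the adjusted p was 0.0892 without control 2, 0.0643 without control 3 and 0.069 with a term for stromal and muscle markers, in a range of 0.00287 to 0.0892 over 23 alternatives.

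Galns, a sulfatase of keratan sulfate, had 7.15, 9.18, 14.1, 8.72 and 17.7 scaled FPKM in cKO 1 to 5, against 7.96, 6.78 and 7.23 in controls 1 to 3. Only cKO 3 and cKO 5 stood far above the controls, and its log2 fold change of 0.50 ± 0.26 was not called (adjusted p = 0.209, limma). The remaining 7 hydrolases of this class beside Glb1 had log2 fold changes between -0.33 and 0.16 and were not called. They are Naglu at -0.33, alpha-mannosidase Man2b1 at -0.26, beta-glucuronidase Gusb at -0.26, Hexa at -0.23, tripeptidyl peptidase Tpp1 at -0.19, alpha-galactosidase Gla at -0.14 and acid alpha-glucosidase Gaa at 0.16. Hexa, the alpha subunit of beta-hexosaminidase, was the only one of these without overlap, at 22.2 to 26.5 scaled FPKM in cKO and 27.6 to 30.2 in controls (adjusted p = 0.112, limma).

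Among the 7 lipid-handling genes, 1 was called (14.3%, the same share as among all genes tested). Lysosomal acid lipase (Lipa, chromosome 19, 34492316 to 34527474, minus strand), which splits cholesteryl esters and triglycerides, had 2.78, 4.55, 5.38, 5.51 and 5.64 scaled FPKM in cKO 1 to 5, against 9.68, 12.5 and 10.8 in controls 1 to 3. All cKO libraries lay at a lower level than any control, with means of 4.77 ± 1.19 in cKO (SD, n = 5) and 11.01 ± 1.44 in controls (SD, n = 3). Its log2 fold change was -1.08 ± 0.19 (adjusted p = 0.00903, limma). Without control 2 it was -0.99 with an adjusted p of 0.0564, and the other 22 alternatives kept the call, with adjusted p from 0.00136 upward.

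The partners that carry freed cholesterol out of the lysosome were not called. Npc2, the soluble carrier, had 58.9 to 111 scaled FPKM in cKO and 80.8 to 88.4 in controls (log2 fold change -0.07 ± 0.18). Npc1, the membrane carrier that receives cholesterol from it, had 11.9 to 26.4 in cKO and 13.1 to 29.8 in controls (0.03 ± 0.31). Both genes overlapped between the groups.

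Acid ceramidase (Asah1) had 123, 102, 129, 163 and 165 scaled FPKM in cKO 1 to 5, against 108, 80.6 and 95.7 in controls 1 to 3, where cKO 2 alone fell within the control range. Its log2 fold change was 0.51 ± 0.18 (adjusted p = 0.0956, limma), and it was called in 4 of 23 alternatives. Prosaposin (Psap), the precursor of the saposins that help enzymes reach sphingolipids, had 319, 298, 384.5, 258.5 and 426 scaled FPKM in cKO, against 354, 298 and 334.5 in controls. The means were 337 ± 67.3 in cKO (SD, n = 5) and 329 ± 28.7 in controls (SD, n = 3), and the groups overlapped (log2 fold change 0.02 ± 0.18, 95% interval -0.38 to 0.41). Ppt1, which takes palmitate off proteins, had 35.9 to 48.6 in cKO and 33.7 to 34.6 in controls, without overlap (0.20 ± 0.11, adjusted p = 0.241, limma). Acid sphingomyelinase (Smpd1) had 11.4 to 23.0 in cKO and 18.8 to 24.6 in controls (-0.28 ± 0.21, not called).

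Of the 5 membrane proteins, the tetraspanin Cd63 (chromosome 10, 128908919 to 128912818, plus strand), which marks late endosomes and exosomes, rose. It had 43.5, 33.9, 39.7, 20.04 and 48.6 scaled FPKM in cKO 1 to 5, against 21.3, 16.0 and 16.4 in controls 1 to 3. In 4 cKO libraries it was above all controls, and cKO 4 lay below control 1. The log2 fold change was 0.97 ± 0.26 (adjusted p = 0.0401, limma), and among the 11 calls this was the one lost most often. It was lost in 11 of 23 alternatives and in all but 1 of those that leave out a library, where the adjusted p was 0.0625, 0.159 and 0.146 without controls 1, 2 and 3, and 0.0771, 0.0635, 0.06 and 0.0706 without cKO 1, 2, 3 and 5. With the title series as a term it was 0.0934, and without both cKO 1 and cKO 2 it was 0.119. Without cKO 4 it was 0.00325, the lowest of all alternatives.

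The major glycoproteins of the lysosomal membrane were abundant and not called. Lamp2 had 253, 219, 237, 284 and 327 scaled FPKM in cKO 1 to 5, against 291, 243 and 262 in controls 1 to 3. These overlapped fully (log2 fold change -0.02 ± 0.15, 95% interval -0.36 to 0.32). Lamp1 had 206.5 to 311 in cKO and 180.4 to 209 in controls (0.36 ± 0.15, adjusted p = 0.145, limma). Scarb2, the carrier of glucocerebrosidase, had 23.9 to 33.8 in cKO and 26.2 to 38.3 in controls (-0.07 ± 0.16).

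The calcium channel Mcoln1 releases calcium from lysosomes and thereby acts on TFEB. It had 11.5, 16.1, 13.9, 12.5 and 18.3 scaled FPKM in cKO 1 to 5, against 12.9, 12.4 and 12.5 in controls 1 to 3, overlapping (log2 fold change 0.16 ± 0.14, 95% interval -0.16 to 0.49). Tfeb itself was low, at 1.34, 2.56, 2.88, 2.00 and 1.74 scaled FPKM in cKO 1 to 5, against 2.35, 2.87 and 2.64 in controls 1 to 3. The groups overlapped (log2 fold change -0.24 ± 0.17, adjusted p = 0.358, limma). TFEB is regulated mainly by phosphorylation and its place in the cell, which mRNA does not show.

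**Figure D4:**
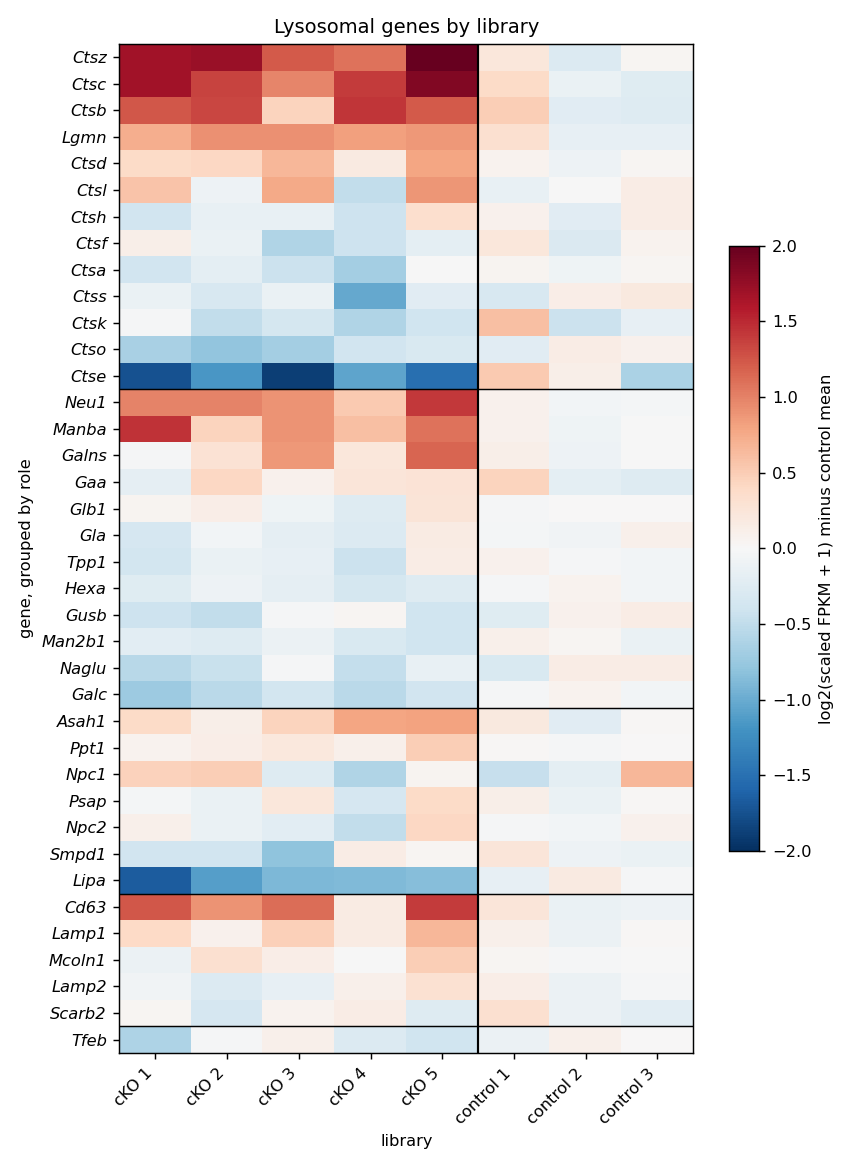
Each of the 38 lysosomal genes (rows, in blocks by role) in each library (columns, cKO 1 to 5 left of controls 1 to 3), coloured by log2(scaled FPKM + 1) minus the mean of the controls. The rows of Ctsz, Ctsc and Lgmn are red in all 5 cKO columns and those of Ctse and Lipa blue, most other rows are pale, and cKO 5 holds the highest cKO value for 21 of the 38 genes.

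Levels spanned a wide range, from a mean of 1.06 scaled FPKM for Ctsk to 2393 for Ctsl, with 9 genes above 100 and 9 below 10. Summed over the 38 genes, the level was 6736, 5613, 6968.5, 4995 and 8357 scaled FPKM in cKO 1 to 5, against 5009, 4630.5 and 5087 in controls 1 to 3. The sum was highest in cKO 5, and cKO 4 lay within the control range. Without Ctsl the sums were 3591 to 4692 in cKO and 2654 to 3218 in controls, and did not overlap. The sums over all genes tested did not overlap either, at 380400 to 463200 in cKO and 347300 to 377400 in controls. As a share of all FPKM the 38 genes took 1.29% to 1.87% in cKO and 1.32% to 1.37% in controls.

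The cKO libraries differed among themselves in these genes. Of the 38, cKO 5 was the highest cKO library for 21 (55.3%), where it was highest for 18.4% of all genes tested. In turn cKO 4 was the lowest for 15 (39.5%), where it was lowest for 19.7% of all genes tested. Macrophage markers summed to 53.7 scaled FPKM in cKO 5 and 17.2 in cKO 4, the highest and lowest of the cKO libraries. Most of these sums was Lyz2, which neutrophils also express, at 38.9 in cKO 5 and 12.3 in cKO 4. The markers Csf1r and C1qa were highest in cKO 3, at 3.37 and 3.43, against 2.83 and 2.41 in cKO 5. The part of macrophages in the order of the cKO libraries was not tested. With the macrophage marker level as a term in the fit, 9 lysosomal genes were called higher and 4 lower, with 788 and 653 among all genes. With a term for stromal and muscle markers it was 5 higher and 2 lower, with 370 and 321 among all genes. Without a term the counts were 7 and 4, with 823 and 790 among all genes. The part of glands, for which Foxa2 was the only marker high enough to be tested, in these differences was not tested.

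Some of these genes overlap others on the genome, and the sources used here do not say whether reads were assigned by strand. Exons of 10 of the 38 share bases with another gene in GENCODE M21, and for 8 of these the partner is in the deposited tables. Ctsb shares exon bases with Fdft1, the squalene synthase on the opposite strand. Fdft1 is listed at 0 in all 5 cKO libraries and had 85.8, 70.4 and 58.2 scaled FPKM in controls 1 to 3. Ctsz shares bases with Nelfcd, which had 13.3 and 11.3 scaled FPKM in cKO 3 and cKO 4, is listed at 0 in cKO 1, cKO 2 and cKO 5, and had 9.77, 11.7 and 11.5 in controls. Ctsz was higher in the 3 cKO libraries where Nelfcd is listed at 0 than in the other 2.

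The fit was therefore repeated with each gene merged with its overlapping partners. Ctsb then had a log2 fold change of 0.91 ± 0.26 (adjusted p = 0.0489, limma) and Ctsz of 1.30 ± 0.19 (adjusted p = 0.00388, limma), and both remained called. Ctsa overlaps Pltp and Neurl2, both listed at 0 in all 8 libraries. The merged value of Ppt1, which overlaps the more abundant Cap1, was 0.06 ± 0.09. The other overlapping pairs were Hexa with Tmem202, Glb1 with Tmppe, Lamp1 with Grtp1 and Npc1 with 3110002H16Rik, and none of these was called alone or merged.

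The 38 genes were listed with 56 transcripts, of which 44 were tested and 10 were listed at 0 in every library. Of the 44, 6 were called higher and 4 lower, where 10.1% of all transcripts tested were called in either direction. In 5 genes at least 2 transcripts had a mean of 1 scaled FPKM or more (Psap, Lamp2, Gaa, Glb1 and Ctss). Lamp2 was split between a transcript of 1788 bases and one of 3614 bases. The longer took 23.7%, 21.6%, 23.8%, 33.4% and 15.5% of Lamp2 in cKO 1 to 5, against 18.0%, 17.4% and 16.2% in controls 1 to 3, so cKO 5 lay below and the other 4 above the controls (log2 fold change of the longer transcript 0.39 ± 0.22, adjusted p = 0.273, limma).

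Psap was listed as a transcript of 2651 bases in all libraries and a shorter one of 2567 bases in some. The shorter had 164, 65.1 and 76.1 scaled FPKM in cKO 1, cKO 2 and cKO 5, and is listed at 0 in cKO 3, cKO 4 and all 3 controls. It was not called (adjusted p = 0.202, limma). The transcripts of Gaa, Glb1 and Ctss were not called.

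Genes of the wider lysosomal system, taken from fixed lists, were read from the same fit, in which 14.3% of all genes tested were called. Of 28 other lysosomal hydrolases tested, 0 were called higher and 1 lower, the alpha-mannosidase Man2b2 (log2 fold change -0.61 ± 0.11, adjusted p = 0.0115, limma; 0.0547 without control 3, in a range of 0.00318 to 0.0607), with 3.6% of the list called and a list median of -0.10. Of 19 other lysosomal membrane proteins, 0 were called higher and 1 lower, Laptm5 (-1.02 ± 0.28, adjusted p = 0.0436), a protein of blood cells. It was called without 2 of the 8 libraries only (cKO 2 and cKO 3), with adjusted p between 0.00803 and 0.183 over all alternatives. None of 13 receptors and sorting factors of the mannose 6-phosphate route and none of 13 TFE factors and mTORC1 docking proteins was called, with medians of 0.06 and 0.03. Of 20 autophagy genes 1 was called, Gabarapl2, higher at 0.60 ± 0.16 (adjusted p = 0.0368), and it was called without 3 of the 8 libraries only (control 1, cKO 2 and cKO 3), with adjusted p between 0.00532 and 0.158 over all alternatives.

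In the proton pump, 2 isoforms of 1 subunit were called in opposite directions among 18 vacuolar ATPase genes tested. Atp6v0a4, the isoform known from kidney and epididymis epithelium, had 20.1, 24.1, 17.0, 31.5 and 23.8 scaled FPKM in cKO 1 to 5, against 10.0, 1.82 and 2.23 in controls 1 to 3. All cKO libraries were above the controls, of which control 1 was highest (log2 fold change 2.36 ± 0.41, adjusted p = 0.00872, limma; 0.0523 without control 3, in a range of 0.00064 to 0.0523). The widely expressed isoform Atp6v0a1 had 26.4, 27.4, 22.5, 24.8 and 27.7 scaled FPKM in cKO 1 to 5, against 51.2, 41.4 and 44.5 in controls 1 to 3. It did not overlap either (log2 fold change -0.80 ± 0.10, adjusted p = 0.00262, limma) and was called under all 23 alternatives. The median of the 18 was 0.20.

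The inhibitors of cysteine cathepsins were measured too. Of 12 cystatins and stefins, 3 were high enough to be tested and 0 were called, against 14.3% of all genes. Cystatin C (Cst3), the main secreted inhibitor, had 121 to 218 scaled FPKM in cKO and 147 to 150.4 in controls (log2 fold change 0.26 ± 0.18, adjusted p = 0.357, limma). Stefin B (Cstb), the main inhibitor inside cells, had 169.5 to 294 in cKO and 145 to 169.7 in controls (0.46 ± 0.18, adjusted p = 0.125, limma). The third, Stfa2l1, a stefin A gene known from mouse neutrophils, was at 1.32 ± 0.56 (adjusted p = 0.144, limma).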

How the data were processed

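RNA of mouse uterine epithelium was sequenced as 5 Smad2/3 cKO and 3 control libraries, grouped by their genotype label. Per the labels' protocols, cDNA was primed with random and poly-dT primers. The submitters' processing notes name bcl2fastq 1.8.3, TopHat and Cufflinks (both without a version) and mm10. The sources used here name neither strand use nor the annotation. Per the file headers, the authors deposited FPKM for each transcript, with an interval and a status, 1 library per table. A coverage signal stands in the same deposited tables and enters no result. No read counts were used. Mapped fragments, worked out from how wide those intervals are, were 43.8 to 54.7 M in cKO and 52.1 to 55.0 M in control libraries.

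Transcript FPKM was summed to 24346 gene symbols and scaled between libraries by median ratios (factors 0.924 to 1.064). A total of 15 genes with a status other than OK were left out, none of them lysosomal genes of the set. Genes had to reach a scaled FPKM of 1 in 3 or more libraries, which left 11315. They were fitted with limma 3.58.1 (R 4.3.3) as log2(scaled FPKM + 1), two-sided with a variance trend and Benjamini-Hochberg adjustment over all of them, and called at an adjusted p below 0.05. Fold changes on this scale understate the change of low genes. The fit was also run on simulated data with independent noise in each gene, which hold no effect shared by the genes of a library. No result here rests on that run. Transcripts (13380) were tested in the same way. Replicate numbers only name the libraries.

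The 38 genes, the other lists, the marker lists and the tests were chosen with earlier results of these data known. Values in every library are given for called genes, Tfeb, Mcoln1, the 6 most abundant genes and the 4 largest uncalled changes, and of each other list up to 3 called genes are named. The 23 alternatives changed the scaling (none, TPM, quantile), the pseudocount (0.1), the filter (none, FPKM 5), the status rule, the variance model and the array weights. They also left out each library, or cKO 1 and cKO 2, whose titles belong to another number series, and took as a term that series, stromal and muscle markers or macrophage markers. The last of the 23, merging genes with overlapping partners, was chosen after seeing the data. Promoters are RefSeq sequences on GRCm38.p6 and overlaps are from GENCODE on the same build, which is mm10.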

Additional observations from a re-analysis of the deposited data

Results flagged for a closer look

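In each of the 38 lysosomal genes, the highest and the lowest of the 5 cKO libraries were compared with the range of that group, and 2 libraries stood apart by Dixon's test. Chance marks about 1 in 20 groups. Ctsb was lowest in cKO 3, at 452 scaled FPKM, where the other 4 cKO libraries lay between 784 and 899. Ctss was lowest in cKO 4, at 11.4 scaled FPKM, where the other 4 lay between 19.2 and 22.1. Without cKO 3 the log2 fold change of Ctsb was 1.31, against 1.14 with all libraries. The groups of 3 controls were too small for this test.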

How the results depend on the processing

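The alternatives moved counts of calls more than fold changes, and none turned the sign of a called lysosomal gene. Ctsz, Ctsc and Lgmn were called in all 23. The lysosomal genes called higher numbered 3 to 7 and those called lower 0 to 4 when 1 library was left out, against 7 and 4 with all. Those called lower were 7 on TPM, 7 with array weights and 2 with a term for stromal and muscle markers. All genes called higher were 823 in the full fit, 510 on TPM, 1793 with array weights, 370 with the stromal and muscle term, and 238 to 928 without 1 library. Those called lower were 790 in the full fit, 1662 on TPM, 1733 with array weights, 321 with that term, and 176 to 887 without 1 library. The transcripts of lysosomal genes called were 3 to 9 without 1 library, against 10. The median log2 fold change of the 38 genes was -0.25 on TPM, where that of all genes was -0.20. The ratio of the summed level was 1.33, and 1.24 to 1.41 without 1 library. The sum over all genes tested was also higher in every cKO library than in any control. Leaving out a library leaves fewer samples to estimate the spread; otherwise the cause was not tested. Among uncalled genes with values in every library, the sign changed in 1 alternative for Mcoln1, 6 for Psap and 8 for Lamp2. Of the 38, 8 uncalled genes were called in at least 1 alternative (Asah1, Ctsd, Ctsa, Hexa, Man2b1, Lamp1, Naglu and Galns). No paired analysis was possible because the labels give no numbers or pairing shared between cKO and control libraries. With 3 controls, uncalled changes of lysosomal genes are bounded only by their intervals, and Ctsk, near the filter, was tested in 18 of the 23 alternatives.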
